A study of Mus musculus with 18 samples.

Results

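The 10 genes described here act where a broken chromosome end is either protected and joined or cut back and copied: Trp53bp1, Rif1, Mad2l2, Parp1, Parp2, Polq, Lig3, Lig4, Xrcc6 and Prkdc. They were chosen by name, and each was found once among the 55450 genes counted in 18 mouse mammary samples. All 10 passed the filter on low counts that left 19186 genes for testing. The tumors arose in adult female C57Bl/6 mice after an adenovirus carrying Cre recombinase under a CMV promoter was injected into the mammary ducts. B1/P tumors (n = 5) carried Brca1fl/fl/Trp53fl/fl, so that Cre removed both genes in infected cells. P/Rbf tumors (n = 5) carried Trp53fl/fl/TgK18GT121Tg/+, and B1/P/Rbf tumors (n = 5) carried Brca1fl/fl/Trp53fl/fl/TgK18GT121Tg/+. The transgene expresses T121, an N-terminal piece of the SV40 large T antigen that inactivates the Rb family proteins pRb, p107 and p130, after Cre and from a keratin 18 promoter, hence in keratin 18 positive epithelium. Normal mammary glands (n = 3) came from wild-type mice. Every tumor therefore had lost Trp53 by design, the floxed alleles reached C57Bl/6 from an FVB and 129 background, and each library came from 1 mouse. The ages of the mice were not used here.

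At a double-strand break, 53BP1 binds the surrounding chromatin and, through RIF1 and the shieldin complex, keeps nucleases from cutting the end back. Protected ends are taken up by Ku, DNA-PKcs and ligase IV in classical non-homologous end joining. BRCA1 opposes 53BP1 and favors end resection, after which homologous recombination or, at short repeats, DNA polymerase theta can act. PARP1 and PARP2 sense breaks and mark nearby proteins with poly(ADP-ribose), and PARP inhibitors are used against BRCA1-deficient breast cancer. In cells without BRCA1, loss of 53BP1, RIF1 or the shieldin subunit REV7 (Mad2l2) is known to restore resection, which is why the levels of these genes in Brca1-deleted tumors are of interest.

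The summed counts per library ranged from 27661173 to 37794889, with a median of 33802255. Levels are given as CPM, counts scaled to library size and by TMM, a factor that aligns the bulk of genes between libraries. A gene is said to have risen or fallen where edgeR's quasi-likelihood test over all 18 samples gave, after Benjamini-Hochberg adjustment over the 19186 genes, an adjusted p no higher than 0.05. Trp53 counts were lower in all 3 tumor groups than in glands (log2 fold change -2.06 in B1/P/Rbf, -2.05 in B1/P, -2.51 in P/Rbf). Brca1 counts, which sum over the whole gene, were 8.13 to 27.95 CPM for B1/P tumors, 21.1 to 45.0 CPM for B1/P/Rbf tumors, 44.9 to 116 CPM in P/Rbf and 4.61 to 5.99 CPM in glands. Brca1 was thus higher in P/Rbf than in B1/P (log2 fold change 2.37, SE 0.37, edgeR adjusted p = 0.000845), it did not pass the test between B1/P/Rbf and P/Rbf (-1.41, SE 0.36, edgeR adjusted p = 0.0903), and every tumor lay above every gland. B1/P/Rbf tumor 208863 had the most Brca1 of its group (45.0 CPM, against 21.1 to 27.9 in the other tumors), and it alone reached the P/Rbf range. The study's own check of these tumors describes its loss of Brca1 as partial. B1/P tumor 225070 stood apart in its summed fibroblast markers (12640 CPM, against 2446 to 5787 in the other B1/P tumors) and macrophage markers (2849 CPM, against 324 to 949). In bulk tissue, fewer cells of a type and less RNA per cell cannot be told apart.

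The DNA around the start sites of Mad2l2 and Polq is shown because Mad2l2 gave the largest differences between tumor models and Polq the largest against the glands. The sequences are those of RefSeq for GRCm38.p6, 250 bases before and 50 after the annotated start, on the plus strand. Of the 10 genes, 8 had an entry. Capitals mark a CHR word (TTTGAA, the cell cycle genes homology region bound by the DREAM and MuvB complexes), a CCAAT box (CCAAT, bound by NF-Y) or an E2F core (TTCCCGCC), each searched on both strands. E2F factors are the main partners of the Rb family. The E2F core was added to the search after the Polq sequence had been seen, whereas the longer words TTTCCCGC, TTTCGCGC, TTTGGCGC and TTTGCCGC were searched first. The Polq window lies at chr16:37011536-37011835, and the Mad2l2 windows, for 2 annotated starts, lie at chr4:148130670-148130969 and chr4:148140240-148140539.
Polq: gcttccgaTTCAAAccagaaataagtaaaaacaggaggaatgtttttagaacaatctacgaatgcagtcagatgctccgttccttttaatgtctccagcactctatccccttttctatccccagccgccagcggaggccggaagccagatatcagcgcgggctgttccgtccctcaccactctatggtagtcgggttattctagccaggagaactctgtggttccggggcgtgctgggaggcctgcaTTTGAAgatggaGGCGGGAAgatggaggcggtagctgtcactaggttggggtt
Mad2l2 start 1: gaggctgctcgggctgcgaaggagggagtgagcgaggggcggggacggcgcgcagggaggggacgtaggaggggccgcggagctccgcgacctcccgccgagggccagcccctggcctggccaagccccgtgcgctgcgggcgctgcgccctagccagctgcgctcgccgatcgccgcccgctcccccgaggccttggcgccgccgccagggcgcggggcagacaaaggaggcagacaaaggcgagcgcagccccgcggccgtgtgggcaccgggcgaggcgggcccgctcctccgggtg
Mad2l2 start 2: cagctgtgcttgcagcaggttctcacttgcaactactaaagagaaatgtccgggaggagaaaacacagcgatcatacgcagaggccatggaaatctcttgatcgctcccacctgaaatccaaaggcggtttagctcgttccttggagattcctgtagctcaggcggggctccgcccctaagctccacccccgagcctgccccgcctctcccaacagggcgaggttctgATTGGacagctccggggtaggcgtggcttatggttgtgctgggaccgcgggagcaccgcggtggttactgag
The Polq window holds CHR words at -242 and -3 and the E2F core at 10, counted from the start site. At the first Mad2l2 start none of the words was found in a window of 79% G and C, and the second held a CCAAT box at -22. Among 32807 windows of this length, 17.9% hold a CHR word, 37.4% a CCAAT box, 2.19% the E2F core and 2.26% one of the 4 longer E2F words. Of the other members, Xrcc6 held a longer E2F word at -46 and a CCAAT box at 28, and Trp53bp1, Parp1, Parp2, Lig3 and Lig4 held none of the words. These are matches of letters only.

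By edgeR over the 19186 genes, some of the 10 rose in each T121 model over the B1/P tumors. None of the 10 fell in that fit with all samples. In B1/P/Rbf against B1/P, Mad2l2, Polq and Prkdc rose, 3 of 10, where 7.36% of all genes tested rose and 9.29% fell. In P/Rbf against B1/P, Mad2l2, Polq, Parp2, Lig4 and Prkdc rose, 5 of 10, where 8.43% of all genes rose and 10.8% fell. The median log2 fold change of the 10 was 0.33 and 0.54 in these comparisons, beside -0.06 and -0.05 over all genes. Only Mad2l2 and Prkdc did not overlap between groups in the first comparison (10.5% of all genes did not), and only Mad2l2, Parp2, Polq and Lig4 in the second (8.86%). Leaving out 1 sample at a time gave 2 to 4 calls in the first comparison and 3 to 5 in the second, and both comparisons share the B1/P tumors. With the term for 2 library sets the second comparison gave 1 call, and it gave 3 without TMM or with only the groups compared. Over all genes these 3 fits called 2008, 3608 and 1763, in the same order. The study's filter kept none of the genes that rose, and of the 4 it kept it called 0 in the first comparison and 1 in the second, Parp1, which fell (-0.71, edgeR adjusted p = 0.0310). Parp1 also fell in the second comparison in DESeq2 (-0.58, adjusted p = 0.0420), in limma-voom (-0.74, adjusted p = 0.0326) and by edgeR without P/Rbf tumor 290860 (adjusted p = 0.0219), and the range of 3 to 5 counts that fall. Without B1/P tumor 225070 the counts were 3 and 4, beside 3476 and 3937 of all genes. Without B1/P/Rbf tumor 208863 they were also 3 and 4, beside 2492 and 3513 of all genes. The summed epithelial markers moved with these comparisons: they were 1598 to 3593 CPM over the B1/P tumors, 2454 to 4835 CPM over the B1/P/Rbf tumors and 4643 to 8969 CPM over the P/Rbf tumors. Of 6 epithelial markers, 2 rose in B1/P/Rbf and 4 in P/Rbf over B1/P. The basal keratins of that list had negative log2 fold changes and passed no test by edgeR: Krt5 was at -5.08 (adjusted p = 0.0869) in B1/P/Rbf and -2.57 (adjusted p = 0.314) in P/Rbf, and Krt14 at -2.75 (adjusted p = 0.0676) and -0.52 (adjusted p = 0.727). Of 6 fibroblast markers none fell in B1/P/Rbf and 2 fell in P/Rbf, with sums of 2446 to 12640 CPM for B1/P, 799.5 to 4638 CPM for B1/P/Rbf and 1211 to 3934 CPM for P/Rbf. Their part in the members' differences was not tested.

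Deletion of Brca1 beside Trp53 loss and T121, the comparison of B1/P/Rbf with P/Rbf, changed none of the 10 by edgeR, where 0.281% of all genes were called. The log2 fold changes ran from -0.68 (Lig4) to 0.41 (Parp1) with SEs of 0.19 to 0.32, and the median was -0.08. None of the 10 had groups that did not overlap, where 3.02% of all genes did. At an unadjusted p under 0.05 by edgeR there was 1, Lig4 (edgeR p = 0.00752, adjusted p = 0.152, exact permutation p = 0.0159). DESeq2 called Lig4 (adjusted p = 0.0275) where it called 1026 of all genes, and limma-voom called none of the 10, beside 26 of all genes. In the 2 library sets of earlier work with these data, a split the labels do not give, all B1/P/Rbf tumors are in one set and all P/Rbf tumors in the other. With a term for the sets edgeR called none of the 10, beside 5 of all genes. The edgeR differences moved to 1.26 for Rif1 (adjusted p = 0.216, from -0.02), 0.66 for Prkdc (adjusted p = 0.365, from 0.16) and 0.53 for Xrcc6 (adjusted p = 0.640, from -0.12). A p that misses the threshold does not show that the models were alike.

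Against normal glands, Polq and Lig3 rose in every tumor model. Each Lig3 call was lost on leaving out any 1 gland and under the study's filter. The genes that rose were Rif1, Parp1, Polq and Lig3 in B1/P/Rbf (4 of 10, 17.1% of all genes), Parp1, Polq and Lig3 in B1/P (3 of 10, 16.8%) and Rif1, Mad2l2, Polq, Lig3 and Lig4 in P/Rbf (5 of 10, 17.4%). Mad2l2 fell in B1/P, the 1 fall among the 10, where 16.9% of all genes fell. The median log2 fold change of the 10 was 0.70, 0.42 and 0.78 in the same order, beside 0.05, 0.12 and 0.05 over all genes. Without TMM those medians of all genes moved to 0.42, 0.47 and 0.33, so small gland differences depend on the scaling. In that fit 9, 5 and 7 of the 10 were called, beside 8009, 7566 and 7879 of all genes. With the term for 2 library sets 2, 2 and 5 were called, beside 3879, 5012 and 7448 of all genes. In B1/P, limma-voom and the fit with no filter each called 2 of the 10, beside 7031 and 6130 of all genes. Between tumors and glands 5, 4 and 6 of the 10 did not overlap, where 50.5%, 41.4% and 46.5% of all genes did not. Leaving out 1 sample at a time gave 1 to 5, 1 to 4 and 2 to 6 calls. Without B1/P tumor 225070 there were 4, 2 and 5, beside 7320, 6436 and 7494 of all genes. Without B1/P/Rbf tumor 208863 there were 2, 4 and 6, beside 6400, 6311 and 7051 of all genes. Rif1 and Parp1 were then no longer called in B1/P/Rbf (edgeR adjusted p = 0.0521 and 0.0578). The 3 comparisons share the 3 glands. Adipocyte and lymphocyte markers also moved against the glands: all 6 adipocyte and all 6 lymphocyte markers fell in each tumor model. Calls in either direction were 3, 3 and 4 of 6 endothelial and 2, 3 and 4 of 6 epithelial markers. They were 2, 4 and 1 of 6 macrophage and 1, 2 and 1 of 6 fibroblast markers. Over all genes, 37.0%, 33.8% and 37.7% were called in either direction in these comparisons. Summed epithelial markers were 1382 to 1771 CPM in glands and 1598 to 8969 CPM in tumors. Summed adipocyte markers were 10520 to 14410 CPM in glands and 3.08 to 216 CPM in tumors, and summed lymphocyte markers 306 to 411 CPM and 0.715 to 10.9 CPM. The adipocyte markers Plin1, Cidec and Lep were each at 0 counts in 3 of 5 P/Rbf tumors. The part of these cell types in the gland differences was not tested.

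**Figure D1:**
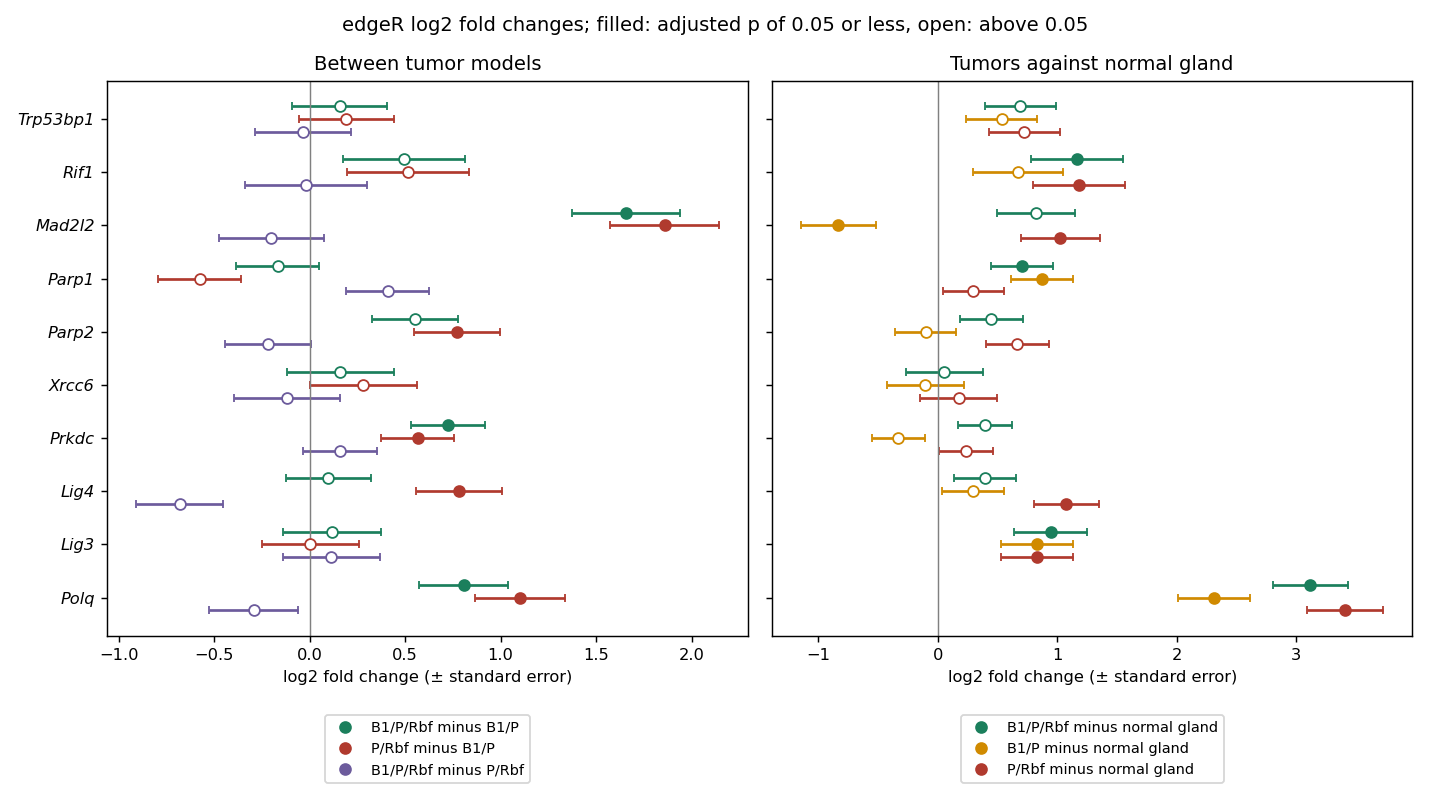
edgeR log2 fold change ± standard error of each of the 10 genes between tumor models (left) and against normal glands (right), filled where the adjusted p was 0.05 or less. Mad2l2 is the rightmost gene against B1/P at 1.66 and 1.86, and Polq the rightmost against glands at 2.31 to 3.41.

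**Figure D2:**
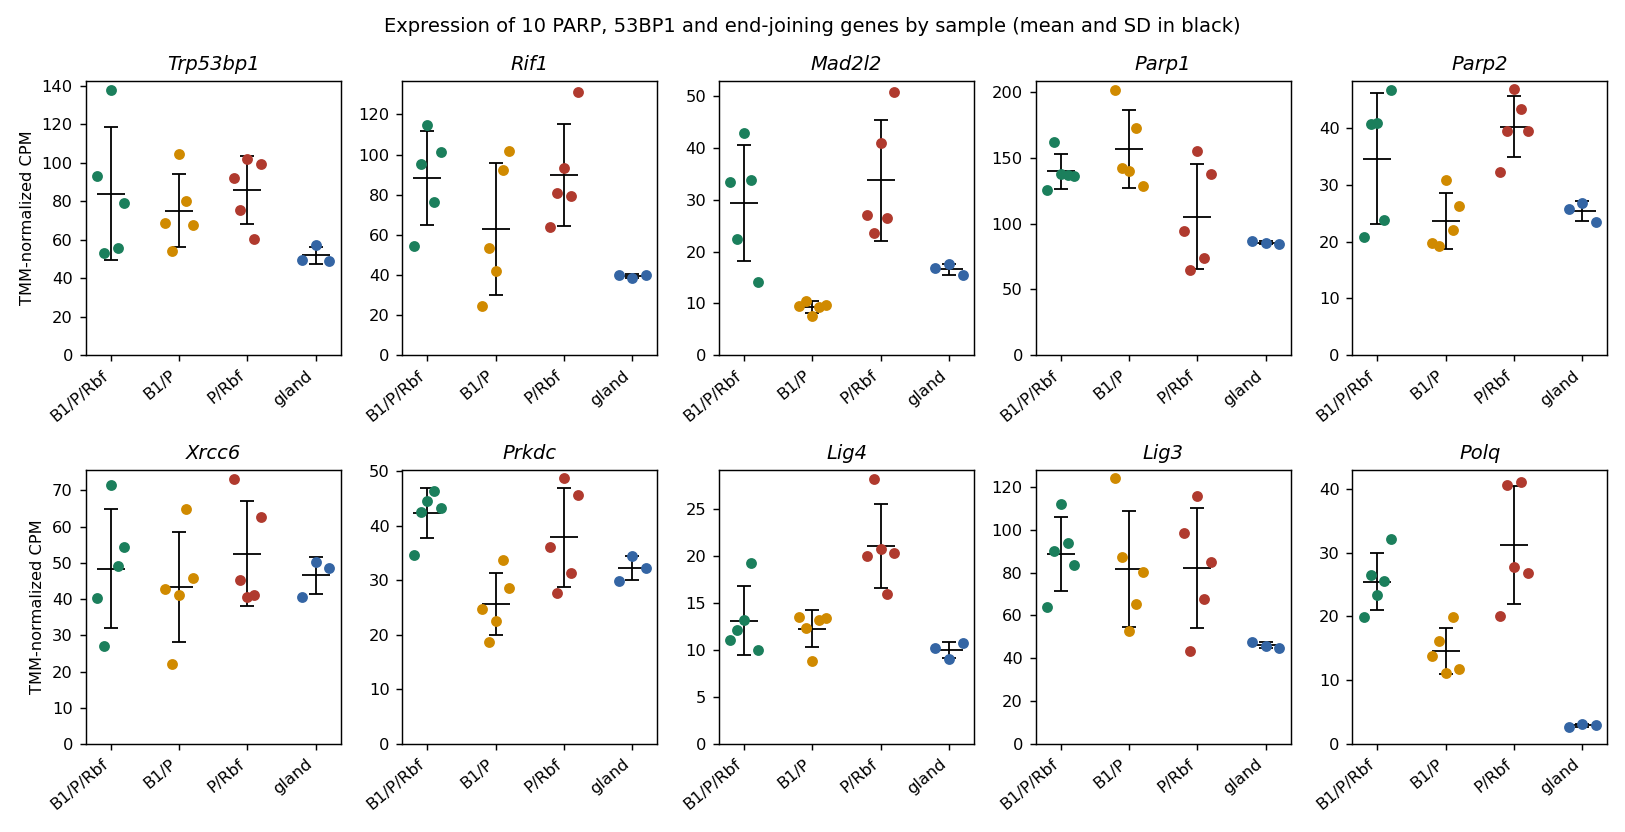
TMM-normalized CPM (linear axis from 0) of each of the 10 genes in every tumor of the 3 models (5 each) and normal glands (3), with the mean and SD in black. All 5 B1/P tumors lie below every other sample for Mad2l2, and the 3 glands lie below every tumor for Polq.

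Trp53bp1, which encodes 53BP1 (chromosome 2, 121193281 to 121271407, GRCm38, minus strand), differed little between the tumor models. It measured 93.0, 52.9, 138, 55.7 and 79.1 CPM in the B1/P/Rbf tumors. The B1/P tumors gave 68.9, 54.3, 104, 80.2 and 67.8 CPM, and the P/Rbf tumors 92.1, 75.6, 102, 60.3 and 99.1 CPM. The ranges of all 3 models overlapped, with the B1/P/Rbf tumors the most scattered (SD 0.57 on the log2 scale, where the median gene had 0.41). Its log2 fold change was 0.16 (SE 0.25, edgeR adjusted p = 0.711) in B1/P/Rbf against B1/P, 0.19 (SE 0.25, adjusted p = 0.619) in P/Rbf against B1/P and -0.04 (SE 0.25, adjusted p = 0.970) in B1/P/Rbf against P/Rbf, the last turning to 0.04 without TMM. The glands measured 49.4, 57.1 and 49.2 CPM, below every P/Rbf tumor, and only the gland at 57.1 CPM reached into the ranges of the other models. Against them the log2 fold change was 0.69 (SE 0.30, edgeR adjusted p = 0.0772) in B1/P/Rbf, 0.53 (SE 0.29, adjusted p = 0.172) in B1/P and 0.73 (SE 0.30, adjusted p = 0.0630) in P/Rbf. The P/Rbf difference passed the test in DESeq2 (adjusted p = 0.0456), with only the groups compared (0.0236), without TMM (0.0128), and without B1/P/Rbf tumor 208863 (0.0339) or P/Rbf tumor 287822 (0.0391). The B1/P/Rbf difference passed it without TMM (0.00997) and without B1/P/Rbf tumor 208857 (0.0396) or 209490 (0.0447), and the B1/P difference without TMM (0.0244). Its exons share 2130 bases with those of Tubgcp4 on the opposite strand, and the sources used here do not say whether the counting used strand.

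Rif1, the effector that joins phosphorylated 53BP1 at breaks and also sets replication timing (chromosome 2, 52072832 to 52122383, plus strand), was spread most widely among the B1/P tumors. They gave 24.7, 53.3, 42.1, 92.5 and 102 CPM (tumors 225068, 225070, 246361, 255232 and 248662). B1/P/Rbf tumors measured 54.4, 95.3, 115, 76.3 and 102 CPM, and P/Rbf tumors 63.7, 81.0, 93.3, 79.3 and 131 CPM. Of the B1/P tumors, 3 lay below every B1/P/Rbf and P/Rbf tumor and the other 2 lay within both ranges. The SD within B1/P was 0.84 on the log2 scale, against 0.52 for the median gene there. The log2 fold change over B1/P was 0.49 (SE 0.32, edgeR adjusted p = 0.311) in B1/P/Rbf and 0.51 (SE 0.32, adjusted p = 0.266) in P/Rbf. The 3 low B1/P tumors are those with animal numbers up to 246361. Earlier work with these data had treated those 3 and the B1/P/Rbf tumors as 1 set of libraries and the remaining 10 samples as another, a split the labels do not give. With a term for these 2 sets, Rif1 rose in B1/P/Rbf against B1/P (1.14, adjusted p = 0.0186) and its difference in P/Rbf against B1/P turned to -0.11 (adjusted p = 0.854). The glands measured 40.1, 38.4 and 39.8 CPM, below every tumor but B1/P tumor 225068. Rif1 rose over them by 1.17 (SE 0.39, edgeR adjusted p = 0.0249) in B1/P/Rbf and by 1.19 (SE 0.39, adjusted p = 0.0226) in P/Rbf, and stood at 0.67 (SE 0.38, adjusted p = 0.179) in B1/P. The B1/P/Rbf call was lost without B1/P/Rbf tumor 208863 (adjusted p = 0.0521) or any 1 gland (0.0620 to 0.0686), and the P/Rbf call without P/Rbf tumor 290845 (0.0543) or any 1 gland (0.0547 to 0.0632). The B1/P difference passed the test without TMM (adjusted p = 0.0432) and with the term for 2 library sets (1.301, adjusted p = 0.0109). That term also moved the Rif1 difference of B1/P/Rbf from the glands to 2.44 (adjusted p = 0.00162). Under the study's filter on low counts the calls in B1/P/Rbf and P/Rbf were lost (adjusted p = 0.0716 and 0.105).

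Mad2l2 separated the B1/P tumors from both models with T121. This small gene (chromosome 4, 148130384 to 148145699, plus strand) encodes REV7, a shieldin subunit that is also a subunit of the translesion polymerase zeta. The B1/P tumors measured 9.54, 10.4, 7.54, 9.35 and 9.65 CPM. The B1/P/Rbf tumors measured 33.3, 22.4, 42.9, 33.9 and 14.05 CPM, and the P/Rbf tumors 27.0, 23.6, 40.9, 26.4 and 50.7 CPM. Every tumor of either T121 model lay above every B1/P tumor, the nearest being B1/P/Rbf tumor 210906, at 14.05 CPM. The glands, at 16.7, 17.5 and 15.4 CPM, lay above every B1/P tumor and below every T121 tumor but 210906. Mad2l2 was also the least scattered of the 10 genes within B1/P (SD 0.17 on the log2 scale).

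Mad2l2 rose in B1/P/Rbf against B1/P by a log2 fold change of 1.66 (SE 0.28, edgeR adjusted p = 0.00135) and in P/Rbf against B1/P by 1.86 (SE 0.28, adjusted p = 0.000741). The exact two-sided permutation test gave p = 0.00794 for each, the smallest the splits of 5 against 5 allow. Both comparisons share the B1/P tumors. Leaving out any 1 sample kept the adjusted p between 0.000643 and 0.00438 for the first and between 0.000305 and 0.00247 for the second. B1/P/Rbf and P/Rbf tumors differed by -0.20 (SE 0.27, adjusted p = 0.776), with overlapping ranges.

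Against the glands, Mad2l2 went opposite ways. It fell in B1/P by 0.83 (SE 0.31, edgeR adjusted p = 0.0485), with all 5 tumors below all 3 glands, and it rose in P/Rbf by 1.03 (SE 0.33, adjusted p = 0.0215), with all 5 tumors above them. In B1/P/Rbf 4 tumors lay above the glands and tumor 210906 below, and the log2 fold change was 0.82 (SE 0.33, adjusted p = 0.0570), or 1.00 (adjusted p = 0.0144) without tumor 210906. It also passed the test without P/Rbf tumor 287842 (adjusted p = 0.0437) or 290845 (0.0484), in DESeq2 (0.0314), in limma-voom (0.0263) and without TMM (0.00897). The B1/P call sat at the threshold: it was lost on leaving out any of 13 samples (B1/P/Rbf tumors 208855, 208857 and 209490, all 5 B1/P tumors, P/Rbf tumors 287842 and 290860, and each gland), with adjusted p between 0.0519 and 0.145. It was also lost in limma-voom (0.178), with no filter (0.0773) and with the term for 2 library sets (0.165). The P/Rbf call was lost without P/Rbf tumor 290845 (adjusted p = 0.0574) and without gland 330154 (0.0560) or 330156 (0.0709). Without TMM the B1/P difference was -0.48 (adjusted p = 0.227) while the median of all genes moved from 0.12 to 0.47, so that relative to that median Mad2l2 stood at -0.95 with TMM and -0.96 without.

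The genes nearest to Mad2l2 differed among themselves. Between B1/P/Rbf and B1/P the difference in mean log2 CPM was 1.26 for Fbxo6, 0.50 for Fbxo44, 1.184 for Fbxo2 and -0.88 for Draxin, all within 0.0319 Mb of the Mad2l2 start. Between P/Rbf and B1/P it was 1.68 for Fbxo6, 0.28 for Fbxo44, 0.75 for Fbxo2 and -0.12 for Draxin. These 4 genes were chosen after their values were seen, and none of these differences was tested. Among 110 genes within 5 Mb that passed the filter, 109 had a smaller difference in mean log2 CPM than Mad2l2 (1.56) between B1/P/Rbf and B1/P, and their median difference was 0.0007. Between P/Rbf and B1/P, 106 of the 110 lay below Mad2l2 (1.80), and their median was higher, at 0.49. Within single tumors, the median of the neighbors and Mad2l2 itself lay on the same side of their means over the tumors in 12 of 15.

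**Figure D3:**
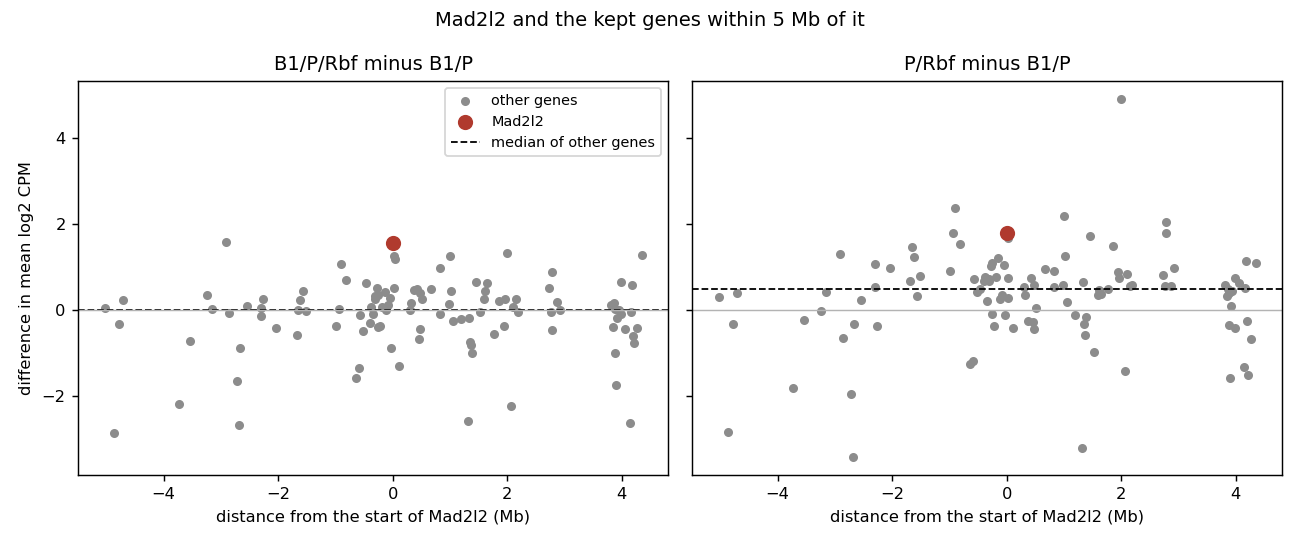
Difference in mean log2 CPM of Mad2l2 (red) and of 110 genes within 5 Mb of it (gray) against their distance from its start, for B1/P/Rbf minus B1/P and P/Rbf minus B1/P, with the neighbors' median as a dashed line. Mad2l2 lies above 109 and 106 of its neighbors.

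Parp1 was the most abundant of the 10 genes per length in every group. In the edgeR fit of all samples over the 19186 genes it passed the test only in gland comparisons. It encodes the main break-sensing poly(ADP-ribose) polymerase (chromosome 1, 180568924 to 180601254, plus strand). Divided by the length of its exons it reached 26.4 ± 2.56 CPM per kb (SD, n = 5) in B1/P/Rbf, 29.7 ± 5.62 in B1/P, 19.9 ± 7.53 in P/Rbf and 16.2 ± 0.204 (n = 3) in glands. Its CPM values were 125, 162, 138, 137 and 136 in B1/P/Rbf, 202, 142, 140, 173 and 129 in B1/P, and 94.8, 64.5, 155, 73.8 and 138 in P/Rbf. The glands measured 86.9, 85.2 and 84.8 CPM, below every B1/P/Rbf and B1/P tumor but above P/Rbf tumors 287845 and 287822. Parp1 rose over the glands in B1/P by 0.87 (SE 0.26, edgeR adjusted p = 0.0154) and in B1/P/Rbf by 0.71 (SE 0.26, adjusted p = 0.0398), and stood at 0.30 (SE 0.25, adjusted p = 0.372) in P/Rbf. The B1/P call was lost without gland 330154 (adjusted p = 0.0518) or 330156 (0.0605). The B1/P/Rbf call was lost without B1/P/Rbf tumor 208857, 208863, 209490 or 210906 or any gland, with adjusted p between 0.0544 and 0.103, and in limma-voom (0.0543) and with no filter (0.0670). Both were lost with the term for 2 library sets (0.0677 in B1/P, 0.312 in B1/P/Rbf) and under the study's filter (0.0739 and 0.216). Between tumor models the log2 fold change was -0.17 (SE 0.22, adjusted p = 0.635) in B1/P/Rbf against B1/P and -0.58 (SE 0.22, adjusted p = 0.0717) in P/Rbf against B1/P, the latter passing the test without P/Rbf tumor 290860 (-0.76, adjusted p = 0.0219), in DESeq2 (adjusted p = 0.0420), in limma-voom (adjusted p = 0.0326) and under the study's filter (adjusted p = 0.0310).

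Parp2, which shares with PARP1 the response to strand breaks (chromosome 14, 50807841 to 50821301, plus strand), was higher in every P/Rbf tumor than in any B1/P tumor. P/Rbf tumors measured 32.3, 39.4, 46.9, 43.3 and 39.5 CPM and B1/P tumors 19.8, 19.2, 30.8, 22.0 and 26.2 CPM, with no overlap. B1/P/Rbf tumors fell into both ranges, at 20.8, 40.7, 41.0, 23.9 and 46.7 CPM. Parp2 rose in P/Rbf against B1/P by 0.77 (SE 0.23, edgeR adjusted p = 0.0253, exact permutation p = 0.00794) and stood at 0.55 (SE 0.23, adjusted p = 0.103) in B1/P/Rbf against B1/P. The first call was lost without B1/P tumor 225068 (adjusted p = 0.0547) or P/Rbf tumor 290860 (0.0527), without TMM (0.0506), in limma-voom (0.0512) and with the term for 2 library sets (0.144). The second reached 0.69 (adjusted p = 0.0378) without B1/P/Rbf tumor 208855. Against the glands (25.8, 26.8 and 23.4 CPM) no difference in Parp2 passed the test by edgeR. In P/Rbf it was 0.67 (SE 0.27, adjusted p = 0.0567), with every tumor above every gland, and passed the test in DESeq2 (0.0372), in limma-voom (0.0431), without TMM (0.0136), with only the groups compared (0.0171), and without B1/P/Rbf tumor 208855 (0.0366) or 209490 (0.0485) or P/Rbf tumor 287842 (0.0292). In B1/P/Rbf it was 0.45 (SE 0.26, adjusted p = 0.193), or 0.82 (adjusted p = 0.0275) without TMM. Its sign in B1/P was negative with TMM (-0.10) and positive without (0.25). Of the 15 tumors, 13 had Parp2 and the median of its 134 neighbors within 5 Mb on the same side of their means, and that median differed by 0.39 between P/Rbf and B1/P, where Parp2 differed by 0.78.

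Xrcc6, which encodes Ku70, a subunit of the ring that slides onto broken ends, had the narrowest span of differences among the 10 genes (chromosome 15, 81987835 to 82040085, plus strand). B1/P/Rbf tumors measured 40.2, 27.1, 71.4, 49.0 and 54.3 CPM, B1/P tumors 42.7, 22.2, 41.2, 64.8 and 45.7 CPM, and P/Rbf tumors 73.2, 45.3, 40.6, 41.1 and 62.7 CPM. The glands, at 40.7, 50.4 and 48.7 CPM, lay inside the range of every tumor group. Its 6 log2 fold changes ran from -0.12 to 0.28 with SEs of 0.28 to 0.32, and none passed the test by edgeR (adjusted p 0.506 to 0.910). The value of B1/P/Rbf against P/Rbf turned from -0.12 to 0.53 with the term for 2 library sets, and that of B1/P against glands from -0.10 to 0.25 both with that term and without TMM. Its exons share 344 bases with those of Desi1 on the opposite strand.

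Prkdc, the catalytic subunit of the DNA-dependent protein kinase that joins Ku at the end, rose in both T121 models over B1/P (chromosome 16, 15637866 to 15842235, plus strand). B1/P/Rbf tumors measured 34.7, 42.6, 44.6, 46.4 and 43.4 CPM, and P/Rbf tumors 36.2, 27.8, 48.8, 31.3 and 45.7 CPM. B1/P tumors measured 24.7, 18.7, 22.5, 33.7 and 28.6 CPM. The lowest B1/P/Rbf tumor cleared the highest B1/P tumor by a narrow margin (34.7 against 33.7 CPM), and P/Rbf tumors 287845 and 287822 lay within the B1/P range. The log2 fold change was 0.72 (SE 0.19, edgeR adjusted p = 0.0176, exact permutation p = 0.00794) in B1/P/Rbf, and the adjusted p stayed between 0.0103 and 0.0401 whichever sample was left out. In P/Rbf it was 0.56 (SE 0.19, adjusted p = 0.0496), and this call was lost on leaving out any of 14 samples: every B1/P/Rbf tumor, B1/P tumors 225068, 225070, 246361 and 248662, P/Rbf tumors 287842, 290860 and 290845, and glands 330154 and 330156 (adjusted p 0.0508 to 0.119). It was also lost in limma-voom, without TMM, with no filter, with only the groups compared and with the term for 2 library sets, where it fell to 0.28 (adjusted p = 0.472). The glands measured 29.98, 34.4 and 32.3 CPM, below every B1/P/Rbf tumor. The log2 fold changes over them were 0.39 (SE 0.23, edgeR adjusted p = 0.182) in B1/P/Rbf, -0.33 (SE 0.22, adjusted p = 0.263) in B1/P and 0.24 (SE 0.22, adjusted p = 0.428) in P/Rbf. Without TMM the first passed the test (0.76, adjusted p = 0.0177) and the second turned to 0.03.

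Lig4, the ligase that seals ends in classical end joining, was highest in P/Rbf tumors (chromosome 8, 9969049 to 9977686, minus strand). They measured 20.05, 28.3, 20.8, 16.0 and 20.4 CPM. B1/P/Rbf tumors gave 11.1, 12.1, 13.3, 19.3 and 9.97 CPM, B1/P tumors 13.5, 12.3, 8.87, 13.2 and 13.5 CPM, and glands 10.2, 9.06 and 10.7 CPM. No B1/P tumor and no gland reached the lowest P/Rbf tumor, and B1/P/Rbf tumor 209490 reached into the P/Rbf range. Lig4 rose in P/Rbf over the glands by 1.08 (SE 0.27, edgeR adjusted p = 0.00481), a call kept whichever sample was left out (adjusted p 0.00288 to 0.0199). It also rose in P/Rbf over B1/P by 0.78 (SE 0.23, adjusted p = 0.0237), a call lost without B1/P tumor 246361 (adjusted p = 0.0550) or P/Rbf tumor 287845 (0.0584), with only the groups compared (0.0623) and with the term for 2 library sets (0.181). Between B1/P/Rbf and P/Rbf the difference was -0.68 (SE 0.23, adjusted p = 0.152, exact permutation p = 0.0159), with 4 of 5 B1/P/Rbf tumors below all P/Rbf tumors. Of 61 genes within 5 Mb of Lig4, 60 had a higher difference in mean log2 CPM than Lig4 (-0.70) between B1/P/Rbf and P/Rbf, and their median was -0.0045.

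Lig3, the ligase that works with XRCC1 on single-strand breaks and in microhomology-mediated joining, rose in every tumor model over the glands (chromosome 11, 82781108 to 82804274, plus strand, between Trp53 and Brca1 on the same chromosome). B1/P/Rbf tumors measured 64.2, 90.0, 112, 93.8 and 83.6 CPM, B1/P tumors 124, 87.2, 52.5, 65.4 and 80.4 CPM, and P/Rbf tumors 98.4, 43.3, 116, 67.9 and 84.8 CPM. The glands measured 47.7, 45.6 and 45.0 CPM, below every tumor but P/Rbf tumor 287845. Lig3 rose over the glands by 0.95 (SE 0.30, edgeR adjusted p = 0.0218) in B1/P/Rbf, 0.83 (SE 0.30, adjusted p = 0.0434) in B1/P and 0.83 (SE 0.30, adjusted p = 0.0390) in P/Rbf. Each of these calls was lost on leaving out any 1 of the 3 glands, with adjusted p from 0.0552 to 0.0715 in B1/P/Rbf, from 0.103 to 0.129 in B1/P and from 0.0778 to 0.105 in P/Rbf. The B1/P call was also lost without B1/P/Rbf tumor 208857, 209490 or 210906, B1/P tumor 225068, 225070 or 248662, or P/Rbf tumor 290845 (adjusted p 0.0506 to 0.104), and the P/Rbf call without P/Rbf tumor 287842 (0.0514), 290860 (0.0894) or 290845 (0.0615). All 3 were lost under the study's filter (0.0913, 0.146 and 0.259). Other settings also ended calls: in B1/P/Rbf with the term for 2 library sets (0.336), in B1/P with that term (0.195), in limma-voom (0.0555), with no filter (0.0754) and with only the groups compared (0.0517), and in P/Rbf in limma-voom (0.0807), with no filter (0.0580) and with only the groups compared (0.0562). Between tumor models its log2 fold changes were 0.12, 0.00 and 0.11 (SE 0.25 each, edgeR adjusted p 0.795 to 0.997), and that of P/Rbf against B1/P was -0.07 without TMM. Its exons share 1826 bases with those of Rffl on the opposite strand.

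Polq, DNA polymerase theta, which anneals short repeats after resection and extends them (chromosome 16, 37011786 to 37095417, plus strand), was lowest in glands and highest in the T121 models. The glands measured 2.66, 3.17 and 2.95 CPM. The B1/P tumors measured 13.9, 16.2, 11.1, 19.96 and 11.7 CPM, the B1/P/Rbf tumors 19.9, 26.4, 23.3, 25.5 and 32.1 CPM, and the P/Rbf tumors 19.99, 40.5, 27.8, 41.1 and 26.8 CPM. No tumor came near the glands, and among tumors only B1/P tumor 255232, at 19.96 CPM, reached above a T121 tumor (B1/P/Rbf tumor 208855, at 19.86 CPM). Polq rose over the glands by 3.12 (SE 0.31, edgeR adjusted p = 1.25e-06) in B1/P/Rbf, 2.31 (SE 0.30, adjusted p = 2.24e-05) in B1/P and 3.41 (SE 0.32, adjusted p = 5.59e-07) in P/Rbf, and these calls stood in every setting in which Polq was kept. Relative to the median of all genes the Polq differences were 3.07, 2.19 and 3.36 with TMM, 3.07, 2.19 and 3.36 without, and 3.56, 2.71 and 3.77 in limma-voom with quantile normalization.

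Among tumors, Polq rose over B1/P by 1.10 (SE 0.24, edgeR adjusted p = 0.00487) in P/Rbf and by 0.81 (SE 0.23, adjusted p = 0.0264) in B1/P/Rbf, with exact permutation p = 0.00794 and 0.0159. The P/Rbf call held whichever sample was left out and was lost with the term for 2 library sets (0.98, adjusted p = 0.0655). The B1/P/Rbf call was lost without B1/P/Rbf tumor 208857 (adjusted p = 0.0525) or 210906 (0.0659), or B1/P tumor 225068 (0.0503), 246361 (0.0606) or 248662 (0.0592). Genes of dividing cells moved in the same comparisons. Of 10 cycling genes, 4 rose in B1/P/Rbf over B1/P, 6 in P/Rbf over B1/P, and 10 in each model over the glands. Of all genes tested, 7.36% rose in the first of these comparisons and 8.43% in the second. Over the glands the share was 17.1% for B1/P/Rbf, 16.8% for B1/P and 17.4% for P/Rbf. The cycling genes summed to 191 to 211 CPM in glands and 1040 to 1922 CPM in B1/P. Their sums were 1771 to 4653 CPM in P/Rbf and 2113 to 3307 CPM in B1/P/Rbf. The P/Rbf tumors with the highest sums, 287822 and 287845, were also the highest for Polq. In B1/P, tumor 255232 was highest for both. In B1/P/Rbf the highest sum was in tumor 209490 (3307 CPM), but Polq was highest in tumor 210906 (32.1 CPM), whose sum was 2438 CPM. The part of cell division in the Polq differences was not tested. The gene whose log2 CPM followed Polq most closely within genotypes over the 15 tumors was Ska2, a spindle and kinetochore gene (Pearson's r = 0.93).

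Per exon length, most neighbors in the order of the 10 genes overlapped in the tumors: of 9 steps, 2 were free of overlap in B1/P/Rbf, 2 in B1/P and 0 in P/Rbf. In the glands 6 of 9 steps were free of overlap. In the B1/P tumors the order ran from Parp1 (29.7 CPM per kb) through Lig3 (11.2), Xrcc6 (9.68), Parp2 (6.51), Rif1 (5.99), Trp53bp1 (5.30), Mad2l2 (3.55), Lig4 (2.36) and Prkdc (1.94) to Polq (1.503). The steps free of overlap in B1/P were those from Parp1 to Lig3 and from Mad2l2 to Lig4. Mad2l2 was 7th there, 3rd in B1/P/Rbf (11.2 CPM per kb) and 2nd in P/Rbf (12.9), and it overlapped its neighbors in the order in both. In the glands Polq was last, at 0.302 CPM per kb, below every value of Lig4 (1.92).

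Of the other genes around 53BP1, about as many rose over the glands as did not. Of 12 tested, 6 rose in B1/P/Rbf, 5 in B1/P and 7 in P/Rbf, where 17.1%, 16.8% and 17.4% of all genes rose. Shld1, a shieldin subunit, was the 1 that fell in each model (log2 fold change -1.49, -1.11 and -1.72). In B1/P 16.9% of all genes fell. In either direction 7, 6 and 8 of the 12 were called, where 37.0%, 33.8% and 37.7% of all genes were. Shld2 stood at -0.60, -0.44 and -0.51, and did not pass the test in any model by edgeR (adjusted p 0.228 to 0.395). Rnf168, the ligase that lays the ubiquitin mark read by 53BP1, rose by 1.19, 0.90 and 1.303. Among the genes called, the largest rise in B1/P/Rbf and P/Rbf was that of H2afx, the histone marked at breaks (2.39 and 2.55). In B1/P it was that of Paxip1 (0.90), the other 53BP1 effector, level with Rnf168 at the digits printed. H2afx averaged 28.16 CPM in B1/P tumors and 11.55 CPM in glands. Between tumor models 3 rose in B1/P/Rbf over B1/P (Mdc1 by 0.85, Ctc1 by 0.81 and Paxip1 by 0.71), where 7.36% of all genes rose. In P/Rbf over B1/P 2 rose (H2afx by 1.26 and Paxip1 by 0.70), where 8.43% of all genes rose. Neither Shld1 nor Shld2 passed the test against B1/P, at -0.37 and -0.16 in B1/P/Rbf and at -0.61 and -0.07 in P/Rbf. None of the 12 was called between B1/P/Rbf and P/Rbf by edgeR, where 0.281% of all genes were, and 1 had an unadjusted p under 0.05.

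Of 11 partners of Ku, DNA-PKcs and ligase IV tested, none rose over the glands in B1/P/Rbf or B1/P and 1 rose in P/Rbf (Aplf, by 0.89), while 2, 3 and 3 fell. In either direction 2, 3 and 4 of the 11 were called, where 37.0%, 33.8% and 37.7% of all genes were. Paxx, the factor that steadies Ku at ends, fell in all 3 (-1.71, -1.44 and -1.74). Dntt, the lymphocyte polymerase that adds bases to antigen receptor joints, also fell in all 3 and is among the falls counted above. Its log2 fold changes were -4.36, -5.40 and -4.09, with 0 to 0.170 CPM in tumors and 0.899 to 1.47 CPM in glands. Dntt passed the filter only through the glands, so against them it could only fall, and the sizes rest on counts near 0. Nhej1, which bridges ends with XRCC4, fell in B1/P (-0.86, edgeR adjusted p = 0.0341). It rose in P/Rbf over B1/P (0.86, edgeR adjusted p = 0.0308), where 8.43% of all genes rose. This rise was the only call by edgeR among the 11 between tumor models. At an unadjusted p under 0.05 there were 1 in B1/P/Rbf against B1/P, 2 in P/Rbf against B1/P and 1 in B1/P/Rbf against P/Rbf. The lymphocyte markers fell in the same gland comparisons as Dntt, and their part in its fall was not tested. Xrcc5, the Ku80 partner of Xrcc6, and Xrcc4, the partner of Lig4, passed no test. Outside the B1/P/Rbf against P/Rbf comparison their log2 fold changes were 0.12 to 0.56 and -0.04 to 0.35. Xrcc5 was widely spread within P/Rbf, from 5.45 to 59.8 CPM, so its fold changes with that group say little.

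Of 9 PARP cofactors and single-strand break repair genes, 2 rose over the glands in each model (17.1%, 16.8% and 17.4% of all genes rose). In B1/P/Rbf 2 fell, in B1/P 1 and in P/Rbf 0. Calls in either direction numbered 4, 3 and 2 of the 9, where 37.0%, 33.8% and 37.7% of all genes were called. Hpf1, which directs PARP1 and PARP2 to serine, rose over the glands in every model (0.86, 0.80 and 0.94), as did Xrcc1, the scaffold that binds Lig3 (1.14, 0.57 and 0.80). Parp3, a relative active in end joining, fell in B1/P by 2.51 and in B1/P/Rbf by 1.42, and stood at -1.04 (edgeR adjusted p = 0.0832) in P/Rbf. Polb, the gap-filling polymerase of base excision repair, fell in B1/P/Rbf by 0.90 (edgeR adjusted p = 0.00852). Between tumor models, 1 of the 9 rose in each comparison with B1/P: Xrcc1 by 0.57 in B1/P/Rbf and Parp3 by 1.47 in P/Rbf. Of all genes, 7.36% and 8.43% rose in these comparisons. Between B1/P/Rbf and P/Rbf edgeR called none, where 0.281% of all genes were called, and 2 had an unadjusted p under 0.05.

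Genes of end resection and microhomology repair rose over the glands in most cases. In B1/P/Rbf 9 of 12 rose, in B1/P 9 and in P/Rbf 10, with none falling, where 17.1%, 16.8% and 17.4% of all genes rose. All 10 cycling genes rose in the same comparisons, and their part in these rises was not tested. Exo1, a resection nuclease, rose most in each (4.88, 4.04 and 4.79). Between tumor models 3 rose in B1/P/Rbf over B1/P (Lig1 by 1.74, Blm by 1.24 and Exo1 by 0.84), where 7.36% of all genes rose. The 1 that fell, where 9.29% of all genes fell, was Rbbp8 (-0.81), which encodes CtIP, the partner of BRCA1 that starts resection. The same names, Lig1 (1.38), Blm (0.95) and Exo1 (0.75), rose in P/Rbf over B1/P, which shares the B1/P tumors. In that comparison 8.43% of all genes rose. Between B1/P/Rbf and P/Rbf edgeR called none of the 12, where 0.281% of all genes were called, and 0 had an unadjusted p under 0.05. These lists were described by counts alone and received no test as sets. Counts at an unadjusted p under 0.05 have no share of all genes beside them.

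**Figure D4:**
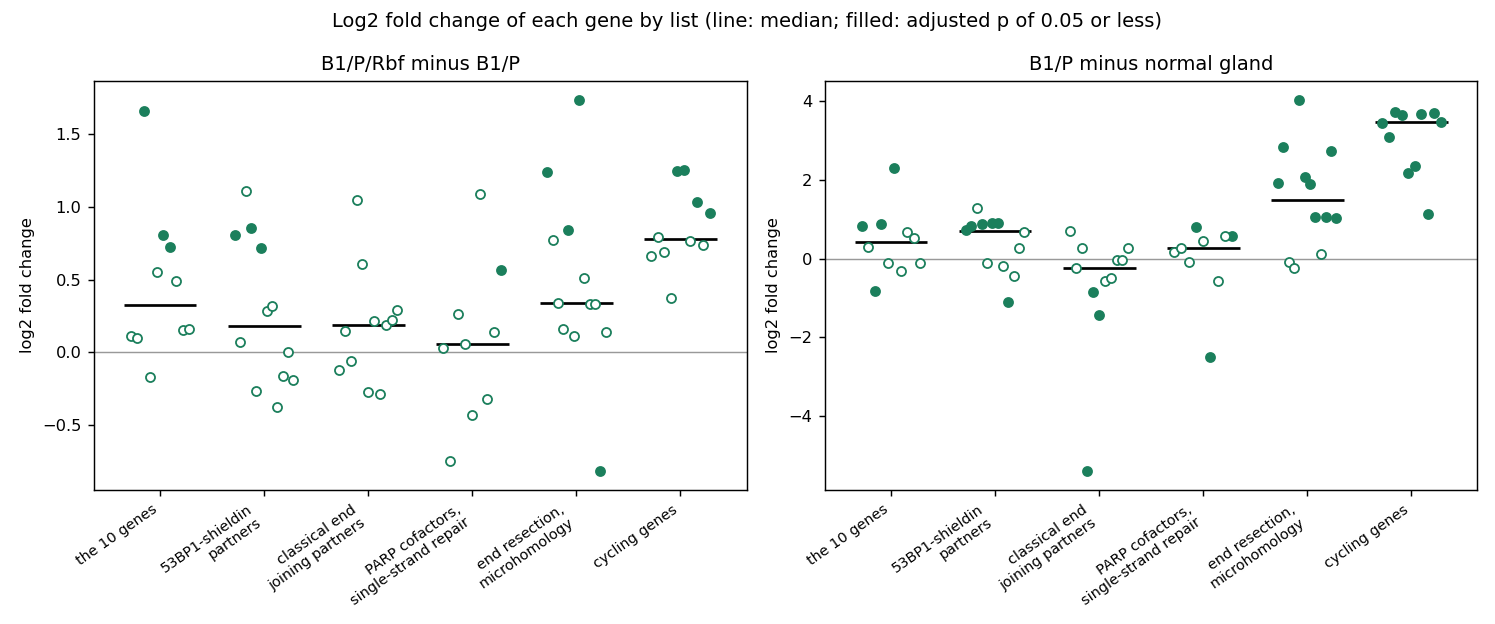
edgeR log2 fold change of each gene by list in B1/P/Rbf against B1/P (left) and B1/P against normal glands (right), with the median of each list as a line and filled points at an adjusted p of 0.05 or less. Against glands the cycling genes (median 3.46) and resection genes (1.48) lie highest and the classical end joining partners lowest (-0.24).

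Within genotypes, the gene that followed each member most closely over the 15 tumors was sought among the 12180 genes averaging 5 CPM or more. For 5 of the 10 it lay on the same chromosome, where 3.44% to 7.74% of the searched genes lie: Ino80 for Trp53bp1 (r = 0.89, 1.82 Mb away), Rc3h2 for Rif1 (r = 0.90, 14.7 Mb), Akr7a5 for Mad2l2 (r = 0.88, 8.82 Mb), Mphosph8 for Parp2 (r = 0.89, 5.86 Mb) and Rps19bp1 for Xrcc6 (r = 0.92, 1.73 Mb). For the others it was Klhl36 for Parp1 (r = 0.90), 1700030K09Rik for Lig3 (r = 0.90), Eno1b for Lig4 (r = 0.87), Ska2 for Polq and Rev3l for Prkdc (r = 0.92). These are the highest of many correlations over tumors that share their library with both genes, and they describe the tumors only. Among the 45 pairs of members, r ran from -0.45 (Polq with Trp53bp1) to 0.71 (Prkdc with Parp1). The median of the genes within 5 Mb lay on the same side as the member in 13 of 15 tumors for Prkdc and Parp2, in 12 for Trp53bp1 and Mad2l2, in 11 for Lig3, in 10 for Rif1, in 9 for Xrcc6, in 8 for Parp1 and Polq and in 6 for Lig4. For Trp53bp1 the neighbors' median differed by 0.53 between P/Rbf and B1/P, where the gene itself differed by 0.20 in mean log2 CPM.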

How the data were processed

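The authors extracted RNA from bulk tumors and glands, made stranded mRNA libraries, pooled the 18, sequenced both ends of each fragment, trimmed reads with Cutadapt 1.18 and counted genes with RSEM 1.3.0. The deposited values are RSEM expected counts per gene, 5.61% of them not whole, and they were rounded here. The study's methods name a human genome build, yet all 55450 gene IDs are those of mouse GENCODE M21 (GRCm38), which is used for positions. The submitters' processing notes list mm10 beside human builds. Whether RSEM counted by strand is not given in the sources used here.

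Genes were kept by filterByExpr (minimum count 10) and tested with edgeR 4.0.16 (quasi-likelihood, TMM, group as the only term, all 18 samples, Benjamini-Hochberg, 6 comparisons). The 10 genes and all lists were chosen with earlier results of these data known. Named genes were all members, Brca1 and Trp53, and from each partner list the called genes that rose or fell most and those that act beside a member. Other partner genes, named where a count was small, were chosen after their values were seen. The 2 library sets come from earlier work with these data and are not in the labels. Log2 CPM used a prior count of 2. Exact permutation tests used 252 splits (5 against 5, smallest p 0.00794) or 56 (5 against 3, smallest p 0.0357). Alternatives were DESeq2 1.42.0, limma-voom 3.58.1 with quantile normalization as in the study's methods, no TMM, no filter, the study's filter (log2 CPM of 6 or more, required in 6 or more samples), only the groups compared, 2 library sets, and each sample left out. The fit was tested on simulated data under R 4.3.3, and figures and permutation tests used Python 3.11.15. No replicate pair agreed within sampling noise (chi-square per degree of freedom 27.0 to 562). The animals were separate, and p-values measure the spread between them. No fold changes or p-values of the authors were used.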

Additional observations from a re-analysis of the deposited data

Results flagged for a closer look

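Lig4 in the B1/P tumors had a sample far from the others. Tumor 246361 measured 8.87 CPM where the other 4 B1/P tumors measured 12.3 to 13.5 CPM, and its gap to the nearest was 0.755 of the range of the group. Chance flags about 1 in 20 such groups, and 30 were examined (10 genes in 3 tumor models). Without this tumor Lig4 in P/Rbf against B1/P had a log2 fold change of 0.68 (edgeR adjusted p = 0.0550).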

How the results depend on the processing

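No paired analysis was possible because each animal has its own number and the groups share none. B1/P is the only group in both library sets, so B1/P/Rbf cannot be compared with P/Rbf or glands within a set. The study's filter kept 4 of the 10 genes. Under it the counts of genes called were 0 in B1/P/Rbf against B1/P, 1 in P/Rbf against B1/P (Parp1, a fall that was not called otherwise by edgeR on all samples) and 0 in each gland comparison. None of the genes called between tumor models was kept, and Rif1, which was kept, lost its calls over glands in B1/P/Rbf (0.87) and P/Rbf (0.79). The cause was not tested. Counts of genes called also moved in P/Rbf against B1/P (3 without TMM, 3 with only the groups compared, 1 with library sets), B1/P/Rbf against P/Rbf (1 in DESeq2), B1/P/Rbf against glands (9 without TMM, 2 with library sets) and B1/P against glands (2 in limma-voom, 2 with no filter, 2 with library sets). Over all genes the same settings called 3608, 1763 and 2008, then 1026, then 8009 and 3879, then 7031, 6130 and 5012. Without B1/P/Rbf tumor 208863 there were 3, 4, 0, 2, 4 and 6 calls among the 10, beside 2492, 3513, 71, 6400, 6311 and 7051 of all genes. Leaving out 1 sample at a time gave 2 to 4, 3 to 5, 0 to 0, 1 to 5, 1 to 4 and 2 to 6 calls. Both are in the order B1/P/Rbf against B1/P, P/Rbf against B1/P, B1/P/Rbf against P/Rbf, then the same models against glands (B1/P/Rbf first, P/Rbf last). Exact permutation tests between tumor models gave p of 0.05 or less in 9 of 30, and in 8 without TMM. No share of all genes was set beside these counts, so they do not show whether the members differed more often than other genes. The values that changed sign were all uncalled. In P/Rbf against B1/P, Lig3 turned to -0.0074 in DESeq2, -0.0804 in limma-voom, -0.0654 without TMM and -0.12 under the study's filter, and with library sets Rif1 turned to -0.11 and Xrcc6 to -0.072. In B1/P/Rbf against P/Rbf, Trp53bp1 turned to 0.0024 in limma-voom, 0.0445 without TMM and 0.0673 under the study's filter. Rif1 turned to 0.0708 in limma-voom, 0.0682 without TMM, 0.0822 under the study's filter and 1.26 with library sets, and with library sets Lig3 turned to -0.16 and Xrcc6 to 0.53. In B1/P against glands, Parp2 turned to 0.0308 in limma-voom and 0.25 without TMM, Xrcc6 to 0.25 without TMM and with library sets, and Prkdc to 0.0253 without TMM. Parp1 in P/Rbf against glands turned to -0.10 under the study's filter. With 1 sample left out, signs changed within these ranges: in B1/P/Rbf against B1/P, Trp53bp1 -0.10 to 0.30, Xrcc6 -0.0218 to 0.35, Lig4 -0.0813 to 0.18 and Lig3 -0.0077 to 0.31. In P/Rbf against B1/P, Lig3 ran from -0.15 to 0.20. In B1/P/Rbf against P/Rbf, the ranges were Rif1 -0.14 to 0.16, Trp53bp1 -0.29 to 0.0909, Xrcc6 -0.30 to 0.0316 and Lig3 -0.0483 to 0.27. Xrcc6 against glands ran from -0.13 to 0.21 in B1/P/Rbf and from -0.30 to 0.0613 in B1/P. The cause of these shifts was not tested. Of the values for single genes, 969 kept their direction and side of the threshold with 1 sample left out, 75 lost a call, 12 gained one and 24 changed sign. In the other settings the numbers were 307, 34, 22 and 21.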
